A study of Mus musculus with 4 samples.

Results

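Toll-like receptors and the proteins that carry or restrain their signal were examined in ribosome footprints of mouse osteoclast precursors. The genes are 8 receptors (Tlr1, Tlr2, Tlr4, Tlr6, Tlr7, Tlr8, Tlr9 and Tlr13), the adaptor Myd88 and Irak3, chosen by name from the count table, which makes 10 of its 22417 genes. All 10 had enough counts to be tested. By function Irak3 (also called IRAK-M) is an inhibitor of the pathway rather than an adaptor. The cells were bone marrow derived monocytes, and all had received RANKL, the cytokine that turns them into bone-resorbing osteoclasts, for 3 days. There were 2 libraries of Nat10 conditional knockout (cKO) mice and 2 of WT mice. Nat10 is the enzyme that places N4-acetylcytidine on RNA, and the study asked what its loss does to translated mRNA during osteoclast formation. The sources used here do not give the strain, the Cre driver and its target cells, the sex and age of the mice, or whether replicates came from separate mice, so p-values measure only the spread between these samples.

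Toll-like receptors recognise microbial products and signal through a TIR domain. The surface members sense lipids and lipopeptides, while the endosomal members sense nucleic acids after the chaperone Unc93b1 has carried them there. Most of them recruit Myd88, which assembles Irak kinases and leads to NF-kappa-B and to cytokine genes such as Tnf and Il6. In monocytes the same signals are known to hold back commitment to osteoclasts when they come before RANKL.

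Ribosome profiling counts the mRNA fragments that ribosomes protect, so a count reflects mRNA level and translation together. Matched RNA-seq was not used here. In bulk samples, fewer cells of a type and less RNA per cell cannot be told apart. The libraries held 906937 to 3014620 counts. WT replicate 2, the deepest, stood apart: its log2 CPM (read counts scaled to a common library total) correlated at 0.797 with WT replicate 1 and at 0.760 and 0.769 with the cKO libraries, which correlated with each other at 0.923. WT replicate 1 correlated better with the cKO libraries (0.862 and 0.876) than with WT replicate 2. Despite its depth, 9402 genes had at least 1 count in WT replicate 2, below the 10508 to 10798 of the other libraries. Nat10 was read 101 and 72 times under cKO against 77 and 148 times under WT, a log2 difference of -0.18 (SE 0.41, adjusted p = 0.907, edgeR quasi-likelihood test), so it does not check the genotype labels. All 8 monocyte and macrophage markers and all 9 osteoclast markers looked for were detected. The summed macrophage level was 33701 to 38358 CPM in cKO and 52380 to 67621 CPM in WT, most of it Lyz2 and Adgre1. The summed osteoclast level was 7930 to 8555 CPM in cKO and 12581 to 13366 CPM in WT. The macrophage markers Fcgr1 and Mertk (log2 0.47 and 0.33) and the osteoclast marker Calcr (log2 2.50) went the other way and did not pass. Of the macrophage and osteoclast markers, 2 of 8 and 1 of 9 fell in cKO, where 60 of all 7953 genes tested were called lower. Of the 7 neutrophil markers, Ly6g was at 0, and the rest summed to 821 and 750 CPM in cKO against 1267 and 1478 in WT, most of it S100a8 and S100a9, with Ngp, a granule protein gene, at 82.3 and 77.5 CPM in cKO against 236 and 157 in WT (log2 -1.29, adjusted p = 0.0881, edgeR). Dendritic cell markers (6, with Xcr1 and Clec9a at 0) summed to 54.2 and 56.6 CPM in cKO against 90.4 and 88.8 in WT, most of it Itgax. Itgax alone had enough counts to be tested and did not pass (log2 -0.82, SE 0.33, adjusted p = 0.368, edgeR). Ccr7 went the other way, at 4.80 and 6.07 CPM in cKO against 2.21 and 0 in WT. Mast cell and endothelial markers summed to at most 2.74 and 12.3 CPM, and the T, NK and erythroid markers had no count. The 7 stromal markers summed to 568 and 518 CPM in cKO against 4171 and 5549 in WT. Of these, 5 fell, all of them matrix genes, beside the same 60 of 7953 genes. Pdgfrb and Runx2 had positive log2 fold changes (1.87 and 2.53) and did not pass. The part of these cell types in the results below was not tested.

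None of the 10 genes passed the threshold of an adjusted p under 0.05 over the 7953 genes tested by edgeR, where 1.40% of all genes did. At an unadjusted p under 0.05 there were 2 of the 10, Tlr7 and Irak3, against 12.1% of all genes. DESeq2 called 1 of the 9 members to which it gave an adjusted p, and limma-voom called 1 of 10, in both cases Tlr7. Over all genes DESeq2 called 4.97% of the 4407 to which it gave an adjusted p, and limma-voom 7.53% of 7953. Of the 10 genes, 8 had a positive log2 fold change (cKO minus WT) and 2, Tlr8 and Tlr9, a negative one. Their median was 0.32, beside -0.01 for all genes tested. The 2 cKO libraries did not overlap the 2 WT libraries for 7 of the 10, beside 45.2% of all genes. Together the 10 genes had 1900 and 1747 CPM in cKO against 1402 and 1317 in WT, which do not overlap. This sum is weighted to the genes with many counts and is no measure of the set as a whole. Mean CPM differed most for Tlr7 (416 in cKO against 200 in WT), Irak3 (357 against 246) and Tlr2 (457 against 364). It was lower in cKO for Tlr8 (94.5 against 122) and Tlr9 (16.9 against 38.8). Without WT replicate 2 the call count was 1 of 10 (Tlr7), with 5.48% of all genes called. Without WT replicate 1 it was 4 (Tlr7, Tlr13 and Irak3 higher, Tlr9 lower), with 27.4% of all genes called.

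**Figure D1:**
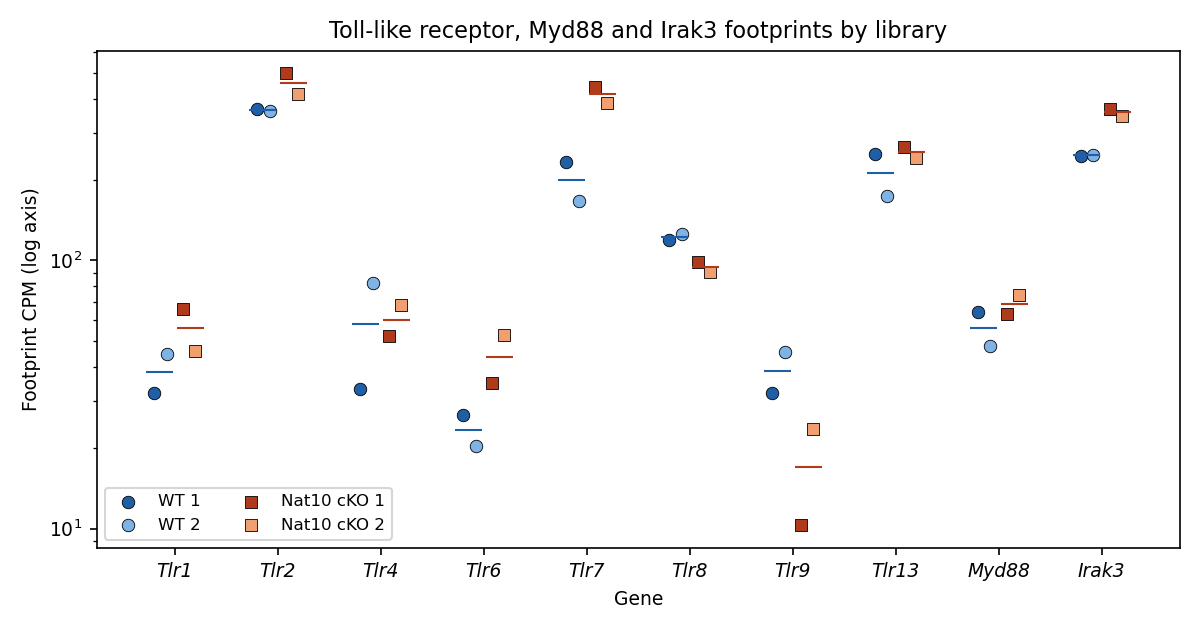
CPM of footprints (log axis) of the 10 genes in each library, with WT as circles and Nat10 cKO as squares; short lines are the means of 2 libraries. The groups separate for 7 genes, with cKO higher for Tlr1, Tlr2, Tlr6, Tlr7 and Irak3 and lower for Tlr8 and Tlr9. Heights are not scaled for gene length and are to be read within a gene.

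**Figure D2:**
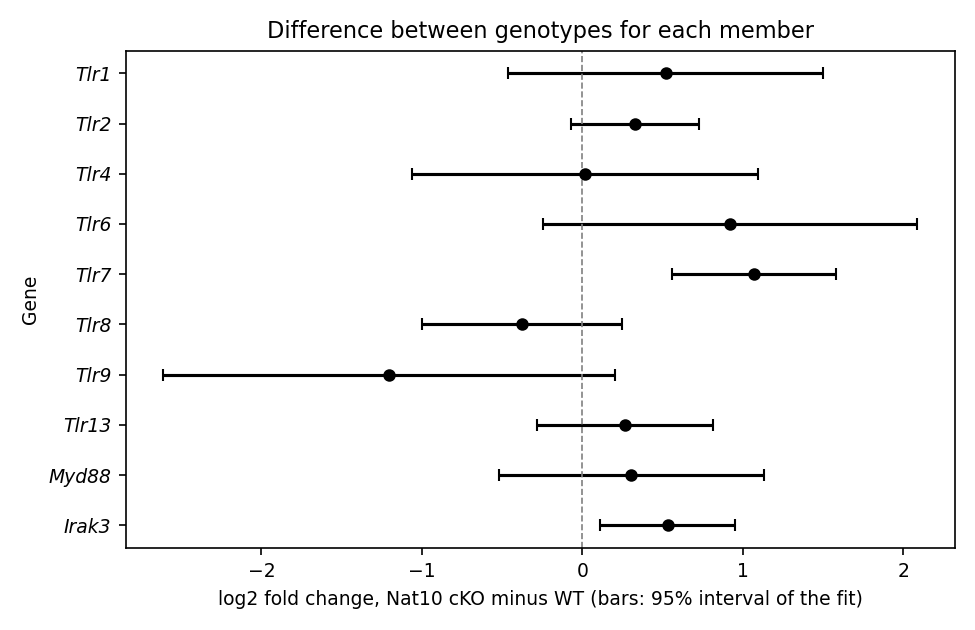
Log2 fold change (cKO minus WT) of each gene from the fit over all 7953 genes, with its 95% interval. The intervals of Tlr7 and Irak3 lie above 0, and neither gene passed after adjustment over all genes.

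Among the surface receptors, Tlr2 had the most counts of the 10 genes. Tlr2 (ENSMUSG00000027995, GRCm39 chromosome 3, 83743579 to 83749074, minus strand) recognises bacterial lipopeptides as a dimer with Tlr1 or Tlr6. It was read 727 and 617 times under cKO against 332 and 1054 times under WT, which are 499 and 416 CPM against 366 and 361 CPM. Both cKO libraries lay above both WT libraries, whose values nearly coincided. The log2 fold change was 0.33 (SE 0.18, 95% interval -0.07 to 0.73, adjusted p = 0.497, edgeR), so a change of more than 0.73 on the log2 scale lies outside the interval.

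The partners of Tlr2 lie next to each other on chromosome 5 (Tlr1, ENSMUSG00000044827, 65082022 to 65090906, and Tlr6, ENSMUSG00000051498, 65109374 to 65117440, both on the minus strand), with 18467 bases between them. Tlr1 stood at 65.8 and 45.8 CPM in cKO against 32.0 and 44.9 in WT, from 96, 68, 29 and 131 counts. The second cKO library thus hardly exceeded the second WT library (log2 0.52, SE 0.43, adjusted p = 0.688, edgeR). Tlr6 stood at 34.98 and 52.6 CPM in cKO against 26.5 and 20.2 in WT, from 51, 78, 24 and 59 counts, with groups that do not overlap (log2 0.92, SE 0.51, adjusted p = 0.517, edgeR). These are close paralogues, and since the treatment of reads that match both is not known, the split between them is uncertain. Added together, after their values had been seen, they gave 101 and 98.4 CPM in cKO against 58.5 and 65.2 in WT, or 99.6 ± 1.70 against 61.8 ± 4.74 (SD, n = 2 each). In cKO the SD of the sum was below the 14.1 of Tlr1 and the 12.4 of Tlr6. In WT it lay between the 9.15 of Tlr1 and the 4.41 of Tlr6. Each SD comes from 2 libraries, and whether reads were exchanged between the 2 genes was not tested.

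Tlr4, the receptor for lipopolysaccharide (ENSMUSG00000039005, chromosome 4, 66745821 to 66848521, plus strand), did not separate the genotypes. It had 76 and 101 counts in cKO and 30 and 241 in WT, which are 52.1 and 68.1 CPM against 33.1 and 82.7 CPM. The WT libraries held both the lowest and the highest value. The log2 fold change was 0.02 with an interval from -1.06 to 1.10 (SE 0.47, adjusted p = 0.991, edgeR). It became 0.88 without WT replicate 2 and -0.42 without WT replicate 1, so its direction rests on single libraries.

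Among the endosomal receptors, Tlr7 was the member closest to the threshold. Tlr7 (ENSMUSG00000044583, chromosome X, 166087925 to 166113554, minus strand) senses single-stranded RNA. It had 649 and 575 counts in cKO and 212 and 484 in WT, which are 445 and 388 CPM against 234 and 166 CPM. Each cKO library lay well above each WT library, at 416 ± 40.7 against 200 ± 48.0 CPM (SD, n = 2 each). The fold was 2.10 (log2 1.07, SE 0.22, 95% interval 0.56 to 1.58), with an unadjusted p of 0.00117, the rank of 147 among all genes tested, and an adjusted p = 0.0634 by edgeR. The adjusted p was 0.00268 by DESeq2 and 0.000765 by limma-voom, 0.000201 with no filter on low counts (2.91% of all genes called), and 0.0247 with the replicate number as a block (1.80% called). It was 0.00112 without WT replicate 2 (log2 0.85) and 5.52e-10 without WT replicate 1 (log2 1.36), but 0.447 and 0.111 without the first and second cKO library, all by edgeR.

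Tlr8, the closest relative of Tlr7, lies beside it on chromosome X (ENSMUSG00000040522, 166025692 to 166047325, minus strand), 40599 bases away. It had the opposite sign. Tlr8 stood at 98.8 and 90.3 CPM in cKO against 119 and 126 in WT, from 144, 134, 108 and 367 counts. The groups did not overlap, but the difference was small against its error (log2 -0.38, SE 0.27, interval -0.996 to 0.246, adjusted p = 0.638, edgeR).

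Tlr9, which senses DNA with unmethylated CpG (ENSMUSG00000045322, chromosome 9, 106099797 to 106104082, plus strand), had the lowest log2 fold change of the 10 genes. It had 15 and 35 counts in cKO and 29 and 133 in WT, which are 10.3 and 23.6 CPM against 32.0 and 45.6 CPM. All 4 libraries were spread out, with the cKO pair below the WT pair. The log2 fold change was -1.20 (SE 0.62, interval -2.61 to 0.21, adjusted p = 0.481, edgeR), and it was -1.39 with an adjusted p = 0.0491 without WT replicate 1. B cells and plasmacytoid dendritic cells are known for high Tlr9. The B cell markers Cd79a and Ms4a1 were at 0 in every library, and WT replicate 2 alone held counts of Cd79b (41) and Pax5 (14). The plasmacytoid marker Siglech had 1 count in all, and the 3 markers of that cell type summed to 20.6 and 41.8 CPM in cKO against 33.1 and 4.46 in WT, nearly all of it Tcf4, a gene of many cell types.

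Tlr13, a mouse receptor for bacterial ribosomal RNA (ENSMUSG00000033777, chromosome X, 105186810 to 105204099, plus strand), was alike in 3 of the 4 libraries. It had 265 and 242 CPM in cKO against 250 and 174 in WT, from 386, 359, 227 and 507 counts. Only WT replicate 2 stood lower (log2 0.27, SE 0.24, adjusted p = 0.722, edgeR). The log2 fold change was 0.03 without WT replicate 2 and 0.58, with an adjusted p = 0.0336, without WT replicate 1. Tlr7, Tlr8 and Tlr13 are X-linked. As a check of sex, 84 counts of Uty, a Y-linked gene, were all from WT replicate 2, and no library held a count of Kdm5d, Ddx3y or Eif2s3y. Any part of sex in these values was not tested.

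The balance among endosomal receptors can be read without any library scaling, from ratios of raw counts inside 1 library. These pairs were chosen after their values had been seen, and with 2 libraries against 2 an exact permutation test cannot give a p below 0.333, so they are descriptions. There were 4.51 and 4.29 Tlr7 counts for each Tlr8 count in cKO and 1.96 and 1.32 in WT. For each Tlr9 count there were 43.3 and 16.4 Tlr7 counts in cKO and 7.31 and 3.64 in WT. For each Tlr13 count there were 1.68 and 1.60 in cKO and 0.934 and 0.955 in WT. All 3 ratios were higher in both cKO libraries, but they share the same Tlr7 counts and are not separate observations. Unc93b1, the carrier of endosomal receptors, had 488 and 402 CPM in cKO against 635 and 887 in WT (log2 -0.78, SE 0.20, adjusted p = 0.133, edgeR; named after its values were seen). Tlr7 counts per Unc93b1 count, which rest on the same Tlr7 counts, were 0.913 and 0.965 in cKO and 0.368 and 0.187 in WT.

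**Figure D3:**
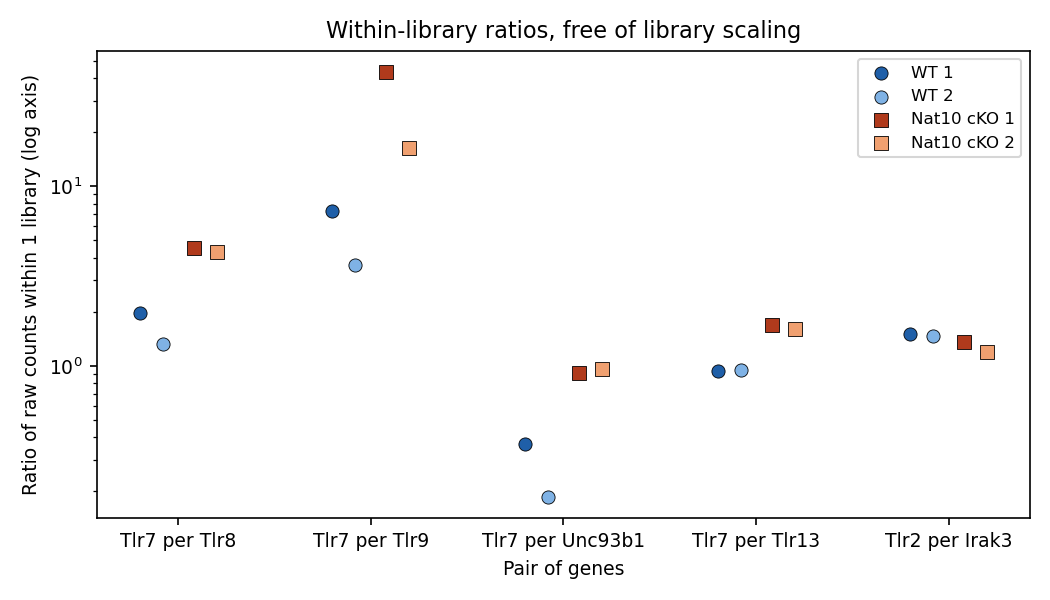
Ratios of raw counts between 2 genes inside each library (log axis), with WT as circles and Nat10 cKO as squares. The ratio of Tlr7 to Tlr8, Tlr9, Tlr13 or Unc93b1 is higher in both cKO libraries, and Tlr2 per Irak3 varies least of the pairs drawn. Ratios also carry gene length and are to be compared within a pair only.

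Sequence before the start site is shown for the pair of receptors with negative log2 fold changes, Tlr8 and Tlr9, beside Tlr2, the gene with the most counts. Each run is the 250 bases before the RefSeq start, 5′ to 3′ on the gene's strand, on GRCm38.p6, which is not the build of the counts. The positions are chr3:83841609-83841858 (minus strand), chrX:167264330-167264579 (minus) and chr9:106222348-106222597 (plus). Capitals mark matches, on either strand, to GGG then any 5 bases then CC (NF-kappa-B), GAAA then any 2 bases then GAAA (interferon response element), GAGGAA (PU.1, a factor of the myeloid lineage) and TGANTCA (AP-1).
Tlr2: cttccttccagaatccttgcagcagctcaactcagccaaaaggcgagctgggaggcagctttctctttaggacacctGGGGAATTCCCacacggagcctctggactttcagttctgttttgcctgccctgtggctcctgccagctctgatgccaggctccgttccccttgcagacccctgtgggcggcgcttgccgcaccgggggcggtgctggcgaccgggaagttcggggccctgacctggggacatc
Tlr8: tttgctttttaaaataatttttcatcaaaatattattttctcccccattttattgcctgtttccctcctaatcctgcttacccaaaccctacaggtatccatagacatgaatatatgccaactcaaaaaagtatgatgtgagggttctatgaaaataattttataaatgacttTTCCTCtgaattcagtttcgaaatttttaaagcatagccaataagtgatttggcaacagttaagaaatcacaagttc
Tlr9: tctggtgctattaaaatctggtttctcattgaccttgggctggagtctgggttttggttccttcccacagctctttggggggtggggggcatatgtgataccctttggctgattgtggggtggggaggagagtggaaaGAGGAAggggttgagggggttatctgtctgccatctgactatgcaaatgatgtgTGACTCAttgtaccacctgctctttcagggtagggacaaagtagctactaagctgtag
The Tlr2 window holds a run of overlapping NF-kappa-B matches 173 bases before the start. The Tlr8 window holds only a PU.1 match, on the opposite strand, and that of Tlr9 a PU.1 match 112 bases and an AP-1 match 58 bases before the start. RefSeq's table had 11 such windows for 8 of the 10 genes, all but Tlr4 and Tlr7. NF-kappa-B letters were in 3 of the 11 and in 45.8% of the 32851 windows of all genes, interferon response letters in 2 and 2.98%, PU.1 letters in 4 and 23.3%, and AP-1 letters in 1 and 6.75%. A match is a description of letters and not a site.

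Myd88, the adaptor shared by most Toll-like receptors and the IL-1 receptor (ENSMUSG00000032508, chromosome 9, 119165000 to 119170477, minus strand), had overlapping groups. It stood at 63.1 and 74.1 CPM in cKO against 64.0 and 48.0 in WT, from 92, 110, 58 and 140 counts (log2 0.31, SE 0.36, interval -0.52 to 1.13, adjusted p = 0.807, edgeR). Irak3, which is known to block the release of active Irak kinases (ENSMUSG00000020227, chromosome 10, 119977553 to 120038035, minus strand), was close within each genotype. It had 534 and 515 counts in cKO and 222 and 723 in WT, which are 366 and 347 CPM against 245 and 248 CPM. Both cKO libraries lay above both WT libraries, at 357 ± 13.5 against 246 ± 2.21 CPM (SD, n = 2 each). The log2 fold change was 0.53 (SE 0.18, interval 0.11 to 0.95, unadjusted p = 0.0188, adjusted p = 0.275, edgeR). It ranged from 0.52 to 0.59 when single libraries were left out and passed without WT replicate 1 (adjusted p = 0.0185). Irak3 counts per Myd88 count overlapped between genotypes, at 5.80 and 4.68 in cKO and 3.83 and 5.16 in WT.

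Of the 4 other mouse receptors looked for, Tlr3 alone had enough counts to be tested. Tlr5 and Tlr11 had no count, and a count of 0 over all 4 libraries allows up to 0.444 CPM for each. Tlr12 had 4 counts, all in cKO replicate 2. Tlr3, the receptor for double-stranded RNA, had 28 and 11 counts in cKO and 2 and 0 in WT. Its summed counts were 25.3 times higher in cKO after library scaling, with an exact 95% counting interval from 6.56 to 217. That interval leaves out the spread between libraries and rests on 2 WT counts in all. In the main fit the log2 fold change was 3.95 (SE 1.98, 95% interval -0.57 to 8.46), and Tlr3 did not pass (adjusted p = 0.472, edgeR). Its fitted log2 fold change ranged from 2.55 to 7.72 over the 3 fits without a single library in which it was still tested, and it passed without WT replicate 1 (adjusted p = 0.00415), where the remaining WT library had no Tlr3 count, so that value is no bound.

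Genes around the receptors, and genes that their signals are known to induce, were tested in the same fit. Outside the induced genes, 47 of 64 pathway genes were tested, of which 1 rose, 1 fell and 45 did not pass (median log2 fold change 0.25), where 1.40% of all genes were called. At an unadjusted p under 0.05 there were 13 of the 47, beside 12.1% of all genes. Over all genes DESeq2 called 4.97% of the 4407 to which it gave an adjusted p, and limma-voom 7.53% of 7953. Among the 64, where each fit gave an adjusted p to its own set of genes, DESeq2 called 1 higher and 3 lower and limma-voom 5 and 4. Without WT replicate 1 there were 14 and 6 (27.4% of all genes called), without WT replicate 2 there were 2 and 3 (5.48%), and without either one of the cKO libraries 1 and 0. The gene that rose was Tnfaip3, an ubiquitin-editing inhibitor of the pathway, at 800 and 1008 CPM in cKO against 303 and 245 in WT (log2 1.73, SE 0.19, adjusted p = 0.00420, edgeR). The gene that fell was Cd36, a scavenger receptor that assists the pair of Tlr2 and Tlr6, at 692 and 756 CPM against 1218 and 1386 CPM (log2 -0.85, SE 0.14, adjusted p = 0.0239, edgeR). Cd36 missed the threshold without the first cKO library (adjusted p = 0.208) and without the second (0.0559).

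By role, 9 of the 10 tested co-receptors and chaperones did not pass, and 5 of the 10 had an unadjusted p under 0.05, beside 12.1% of all genes. Beside Cd36 and Unc93b1 these were Ly86 (log2 1.16, SE 0.44), a partner of the receptor homologue Cd180, the endosomal transporter gene Slc15a4 (log2 1.17, SE 0.50) and the receptor chaperone gene Cnpy3 (log2 0.65, SE 0.27), named after their values were seen. Cd14, which hands lipopolysaccharide to Tlr4, was at 1288 ± 44.3 (cKO) against 1225 ± 119 CPM (WT), and Hsp90b1, the chaperone that folds most Toll-like receptors, at 3492 ± 202 and 3490 ± 63.6 CPM (SD, n = 2 each). Their log2 fold changes were 0.07 (SE 0.13) and 0.00 (SE 0.10). The sign of Cd14 turned without WT replicate 2, and that of Hsp90b1 there and under 3 other alternatives. The 4 endosomal proteases that trim the receptors did not pass either, with 2 of the 4 at an unadjusted p under 0.05. Ctsb was at log2 0.17 (SE 0.11) and Ctss at log2 -0.28 (SE 0.10), and both passed with limma-voom (adjusted p = 0.0296 and 0.00397) and without WT replicate 1 (0.00319 and 0.0103, edgeR). Lgmn, named after its values were seen, came closer to the threshold, at 1196 and 1165 CPM in cKO against 1748 and 2647 in WT (log2 -0.90, SE 0.18, adjusted p = 0.0587, edgeR).

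Of 5 other adaptors 3 were tested and none passed by edgeR, with 1 at an unadjusted p under 0.05, and all 3 had both cKO libraries above both WT libraries, as 22.7% of all genes did. Ticam2, which links Tlr4 to the interferon branch, was at 74.1 ± 3.79 (cKO) against 40.9 ± 1.75 CPM (WT) (SD, n = 2 each). Its log2 fold change was 0.85 with an SE of 0.36 (adjusted p = 0.391, edgeR). Pik3ap1, an adaptor to phosphoinositide kinase, had a log2 fold change of 0.33 (SE 0.18). When single libraries were left out it ranged from 0.11 (without WT replicate 2) to 0.63 (without WT replicate 1). The tested kinases of the Myd88 complex, Irak2 and Irak4, were at log2 0.34 (SE 0.34) and 0.11 (SE 0.49), and the sign of Irak4 turned without WT replicate 1 and with limma-voom. The 12 tested ubiquitin ligases and kinases further down had a median of -0.03, with Tbk1 at 0.02 (SE 0.23) and Ikbke at -0.11 (SE 0.27), both of which changed sign without WT replicate 2. Among 6 transcription factors the median was -0.17, and 2 had an unadjusted p under 0.05 (Rela and Rel), beside 12.1% of all genes. The median lies between 2 groups of opposite sign. Nfkb1 was at 0.32 (SE 0.25), Rela at 0.91 (SE 0.29, adjusted p = 0.225, edgeR) and Rel at 1.05 (SE 0.35). Irf3, Irf5 and Irf7 were at -0.68 (SE 0.63), -1.40 (SE 0.69) and -0.66 (SE 0.52). Rel and these 3 were named after their values were seen. Rela passed with limma-voom (adjusted p = 0.0371), and its log2 fold change ranged from 0.69 to 1.14 when single libraries were left out. The other 7 tested inhibitors did not pass, and the list's median was 0.40. Ptpn6 was among them (log2 0.44, SE 0.21). When single libraries were left out it ranged from 0.24 (without WT replicate 1) to 0.76 (without WT replicate 2). Il1rap, the partner chain of the IL-1 receptor and the only tested receptor of the group that shares Myd88, was at log2 0.48 (SE 0.61).

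Of 20 genes that Toll-like receptor signals are known to induce, 18 were tested, 10 rose, none fell and 8 did not pass (edgeR), where 0.641% of all genes tested were called higher. The list was drawn up with the rise of several of its genes already known, so its count is not independent evidence. The risers were Tnf, Il1b, Il1a, Il6, Cxcl1, Cxcl2, Ccl3, Ccl5, Ptgs2 and Acod1, and the median of the list was 1.77. Ptgs2, the inducible prostaglandin synthase gene, was at 1357 and 1451 CPM in cKO against 525 and 298 in WT (log2 1.78, SE 0.24, adjusted p = 0.01003, edgeR). Acod1, the gene of the itaconate-producing enzyme, was at 4709 and 5245 CPM in cKO against 2951 and 2834 in WT (log2 0.78, SE 0.11, adjusted p = 0.01003, edgeR). Saa3, the gene with the most counts on the list, was at 51668 and 43784 CPM in cKO against 41198 and 43278 in WT and did not pass (log2 0.18, SE 0.09, adjusted p = 0.490, edgeR). Il6 rose on 15 and 6 WT counts and missed the threshold without the first cKO library (adjusted p = 0.0620) and with the replicate number as a block (0.0952). The count of induced genes that rose was 9 to 14 when single libraries were left out. Whether the induced genes differ from the receptors in their response was not tested. The macrophage, osteoclast, neutrophil, dendritic cell (mostly Itgax) and stromal markers given above summed lower in the same cKO libraries. The stromal markers did so by the most, with 5 of 7 called lower, beside 60 of all 7953 genes tested.

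**Figure D4:**
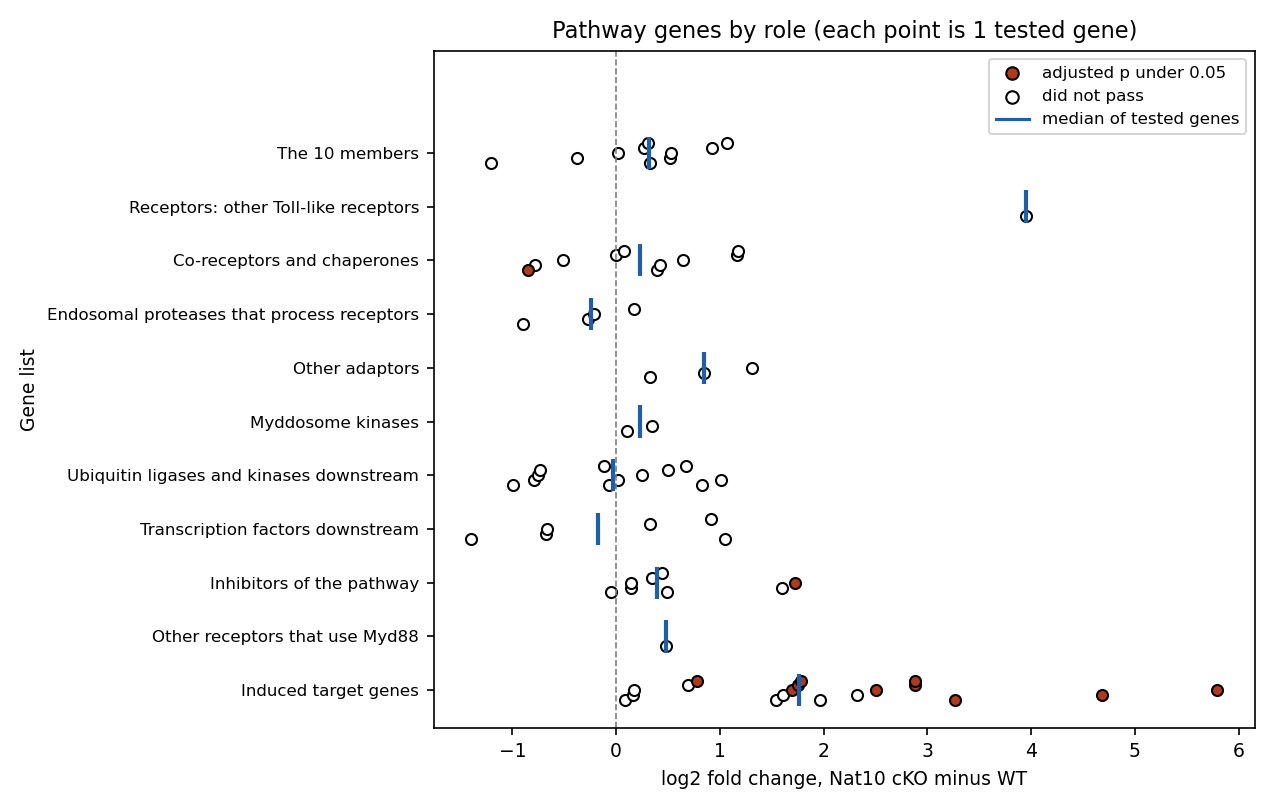
Log2 fold change (cKO minus WT) of each tested gene by role, with filled points at an adjusted p under 0.05 and a vertical line at each list's median. The 8 receptors, Myd88 and Irak3 hold no filled point, the induced target genes hold 10, and 1 filled point each lies among the co-receptors (Cd36) and the inhibitors (Tnfaip3).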

How the data were processed

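Per the file headers, the table deposited by the authors holds raw counts of each gene in the 4 libraries. Per the submitters' processing notes, GRCm39 (mm39), HTSeq, STAR, Bowtie and fastp were used. The sources used here give no versions, strand setting, footprint lengths, or handling of duplicates and of reads matching several genes. Counting intervals cover counting error only. Genes were kept by filterByExpr (minimum count 10, total 15), scaled by TMM and tested with edgeR 4.0.16 (R 4.3.3) by the robust quasi-likelihood method and a genotype term. Benjamini-Hochberg adjustment ran over 7953 genes, with a threshold of 0.05. CPM use TMM-scaled totals, and SE come from the fit. The common biological coefficient of variation was 0.448. The pipeline was tested on simulated counts. Levels are not compared between genes, because no coding lengths were used here. Alternatives were other scalings, no filter, DESeq2 1.42.0, limma-voom (limma 3.58.1), a replicate block and leaving out each library. Deviations of same-numbered libraries from their group means correlated at -0.02, so the numbers were not taken to pair samples. No library was a copy of another by a chi-square statistic (at least 5.19 per degree of freedom). The members and gene lists were chosen with earlier results of these data known. Pathway genes named are those past the threshold and the 2 tested with the most counts in each list. For likeness, the 5 genes closest to the member with the most counts were named.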

Additional observations from a re-analysis of the deposited data

How the results depend on the processing

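The count of the 10 genes called higher was 0 under the main setting and with RLE or upper-quartile scaling. It was 1, Tlr7, with no filter (log2 1.09), with DESeq2 (1.08), with limma-voom (1.17) and with the replicate block (1.08). It ranged from 0 to 3 when single libraries were left out, and the count called lower from 0 to 1. Over those fits the log2 fold change ranged from 0.85 to 1.36 for Tlr7, from -1.89 to -0.70 for Tlr9, from 0.033 to 0.58 for Tlr13, from 0.52 to 0.59 for Irak3 and from -0.42 to 0.88 for Tlr4, which was also -0.12 with limma-voom. DESeq2 gave Tlr9 no adjusted p. The other members (Tlr1, Tlr2, Tlr6, Tlr8 and Myd88) kept their direction and missed the threshold under all 10 alternatives. Over all genes, 51 were higher and 60 lower. These counts were 184 and 179 with no filter, 112 and 107 with DESeq2, and 412 and 187 with limma-voom. They were 67 and 76 with the replicate block, and 35 to 1354 and 38 to 1066 without single libraries. Signs that turned among other named genes were those of values near 0: Hsp90b1 (-0.0060 with upper-quartile scaling, -0.00024 with the replicate block, -0.034 to 0.080 without single libraries), Irak4 (-0.034 with limma-voom, -0.29 to 0.85), Cd14 (-0.0071 to 0.21), Tbk1 (-0.072 to 0.16), Ikbke (-0.37 to 0.29) and Nat10 (-0.51 to 0.25). The cause was not tested. A fit with 1 library in a genotype assumes that it varies like the other pair. Genes with few counts, such as Tlr9, Tlr6 and Tlr3, have intervals too wide to show changes of the size seen for Tlr7.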

Other observations

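The Toll-like receptor signaling pathway of the deposited annotation held 88 genes, of which 62 were tested. It includes 8 of the 10 genes described here, all but Tlr13 and Irak3. By edgeR 6 rose (Ccl3, Ccl5, Cd40, Il1b, Il6 and Tnf) and 1 fell (Spp1, the gene of osteopontin), where 1.40% of all genes were called and 0.641% called higher. Each gene past the threshold encodes a secreted protein or, for Cd40, a costimulatory receptor. These genes were named after their values were seen. Cd40 had a log2 fold change of 2.61. The median of the 62 was 0.35, beside -0.01 for all genes.

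The 5 genes whose log2 CPM profile over the 4 libraries lay closest to that of Tlr2, among 6102 genes averaging 4 or more in log2 CPM, were Gdi2, Avl9, Chd4, Myo5a and Ap2b1. The root mean square difference was 0.0120 for Gdi2 and 0.0286 for Ap2b1. The likeness rests on 4 libraries only, which share their depth and scaling across all genes. Gdi2 stood at 391 and 329 CPM in cKO against 292 and 289 in WT.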
